A study of Homo sapiens with 18 samples.

Results

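The genes described here are 41 interferon-stimulated and RNA-sensing genes, taken by symbol from a list of sensors, transcription factors and antiviral effectors. All 41 symbols were found among the 23686 genes of the count tables. They were followed in 2 established human lines of diffuse large B-cell lymphoma. OCI-Ly1 is commonly classed as germinal-centre B-cell-like and TMD8 as activated B-cell-like. The treated cells had JIB-04, a small-molecule inhibitor of Jumonji-domain histone demethylases, at 150 nM or 500 nM, and the controls had 0.01% DMSO. Each of the 6 groups had 3 libraries of ribosomal RNA-depleted total RNA, prepared as technical triplicates, which makes 18 libraries. No genetic change was made in either line, and no interferon, virus or RNA was given in any group. The labels give no treatment time and do not say if separate cultures stand behind the libraries, so the p-values measure only the spread between these libraries, which may be technical. The culture medium was IMDM for OCI-Ly1 but RPMI 1640 for TMD8, and effects of line and of medium cannot be told apart. The question behind the comparisons was whether disturbing heterochromatin, which JmjC demethylases help to regulate, comes with an interferon response. Heterochromatin itself was not measured in these libraries, so the values describe the response to JIB-04 only.

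As background, cells detect misplaced or viral RNA with cytosolic sensors such as RIG-I (the gene DDX58) and MDA5 (IFIH1), which signal through the mitochondrial adaptor MAVS and lead to the making of type I interferon. Secreted interferon binds the receptor formed by IFNAR1 and IFNAR2, and the kinases JAK1 and TYK2 then activate a complex that holds STAT2 and IRF9. That complex binds the interferon-stimulated response element (ISRE) in front of many antiviral genes and raises their transcription together. Transcripts of silent repeats can form double-stranded RNA when heterochromatin is disturbed, which is why these genes are often followed after treatment with epigenetic drugs.

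What many of the genes share in sequence is the ISRE. RefSeq's promoter table (build GRCh38.p14) held an upstream window for 32 of the 41 genes. For 29 of these the first transcribed bases, 11 to 40 after the start, were found on the same strand in a GENCODE transcript of the gene, and for IFIT5, PARP9 and SAMD9L they were not. The 250 bases before the start were searched on both strands for the core of the element, TTTC followed by any 2 bases and TTTC again. A match was found in 18 of the 32 windows (56.2%), against 1061 of 35116 windows of all genes (3.02%). A match to TTCNNNGAA, the letters of the gamma-activated site, stood in 8 of the 32 (25%) against 2306 of 35116 (6.57%), and in 3 genes (IFI27, BST2 and EPSTI1) it overlapped an ISRE match. A match describes letters, not a site in use. Nor does the lack of a match mean that no element is there. The windows of OAS1, RSAD2 and DDX58 held GAAACGAAA, whose shorter spacer the search could not match. The upstream windows of 4 genes are shown because their responses below went different ways with closely related elements; lower case is the window from 5′ to 3′ on the gene's own strand, and capitals mark the ISRE match.
ISG20, chr15:88638766-88639015, plus strand: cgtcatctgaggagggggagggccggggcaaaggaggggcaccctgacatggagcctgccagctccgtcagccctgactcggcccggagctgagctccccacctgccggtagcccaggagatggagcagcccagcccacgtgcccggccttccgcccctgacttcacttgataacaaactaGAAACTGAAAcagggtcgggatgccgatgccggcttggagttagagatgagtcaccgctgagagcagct
BST2, chr19:17405631-17405880, minus strand: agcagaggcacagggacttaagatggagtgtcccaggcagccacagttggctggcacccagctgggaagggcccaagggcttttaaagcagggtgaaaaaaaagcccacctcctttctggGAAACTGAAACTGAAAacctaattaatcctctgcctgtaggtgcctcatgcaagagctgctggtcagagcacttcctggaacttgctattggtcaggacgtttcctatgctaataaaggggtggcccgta
OAS3, chr12:112938224-112938473, plus strand: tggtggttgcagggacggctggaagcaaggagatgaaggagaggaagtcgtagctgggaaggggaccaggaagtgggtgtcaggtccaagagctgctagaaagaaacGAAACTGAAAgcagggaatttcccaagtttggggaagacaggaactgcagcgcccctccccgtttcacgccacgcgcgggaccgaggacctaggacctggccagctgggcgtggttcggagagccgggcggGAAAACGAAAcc
IFI44, chr1:78649539-78649788, plus strand: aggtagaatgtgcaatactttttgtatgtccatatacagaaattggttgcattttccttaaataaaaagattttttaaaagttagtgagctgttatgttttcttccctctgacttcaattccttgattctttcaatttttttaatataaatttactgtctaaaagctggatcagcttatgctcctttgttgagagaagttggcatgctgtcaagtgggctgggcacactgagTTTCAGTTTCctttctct
The same 10 letters served in all 4 windows, read on the other strand in IFI44, and OAS3 had a second match with other letters. The match began 69 bases before the start in ISG20 and 18 bases before it in IFI44. BST2 had a pair of overlapping matches at 130 and 124 bases, and OAS3 one at 143 and one at 12 bases.

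The count tables were deep. Library totals were 17579732 to 32651115 estimated counts in OCI-Ly1 and 9550092 to 20509500 in TMD8. All 8 B-cell markers examined (such as MS4A1) were above 3 counts in every group, and the summed level of the B-cell list was 1420.4 to 1640 CPM in OCI-Ly1 and 4479 to 5241 in TMD8. Some markers of other cell types were also seen and moved with dose. The T-cell list summed to 18.2 to 21.6 CPM in OCI-Ly1 with DMSO and to 8.07 to 9.06 at 500 nM, with TRAT1 at 0 in both. The fibroblast list summed to 4.02 to 4.56 CPM in TMD8 with DMSO and to 30.3 to 32.1 at 500 nM, of which COL1A1 was 3.67 ± 0.405 and 30.5 ± 0.525, while LUM had 0 to 2 counts in every TMD8 library. Plasmacytoid dendritic cells are the professional makers of interferon, and their list of 5 (which shares TCL1A with B cells) summed to 309.7 to 333 CPM with DMSO and 209 to 225 at 500 nM in OCI-Ly1, with GZMB at 0, and to 743 to 794 and 594 to 620.05 in TMD8. The part of these markers in the results was not tested. The measurements are of bulk RNA, so fewer cells with a transcript and less of it per cell cannot be told apart.

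At 500 nM the set split in both lines. In OCI-Ly1, 39 of the 41 genes were abundant enough to test, of which 11 rose and 12 fell against DMSO. In TMD8, 39 were tested, of which 14 rose and 10 fell. The called share was 59% in OCI-Ly1, where 53.6% of all genes tested were called (27.7% higher and 25.9% lower). In TMD8 it was 61.5%, where 60.7% of all genes were called (29.9% higher and 30.7% lower). Both shares were near those of the whole transcriptome. These whole-transcriptome shares also stand beside the 500 nM counts by role, list or sequence match below. The median log2 fold change over the tested members was -0.05 in OCI-Ly1 and 0.14 in TMD8, beside -0.00330 and 0.0414 over all genes tested. A call here is an adjusted p below 0.05 in edgeR's quasi-likelihood test with Benjamini-Hochberg adjustment over all genes. Levels are CPM, counts scaled to a common library depth by 1 scaling of all 18 libraries, given for replicates 1, 2 and 3 in that order and as mean ± SD with n = 3, and log2 fold changes are given with their SE.

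The split depended in part on how the libraries were scaled. With library size alone the numbers rising and falling at 500 nM were 14 and 8 (OCI-Ly1) or 18 and 9 (TMD8). On log2(TPM + 1) OCI-Ly1 had 14 and 6, and TMD8 had 7 and 17, where the median of all genes was -0.22 on that scale and 0.0414 in the count fit. With each library's median removed from log2(TPM + 1), OCI-Ly1 had 10 and 16, and TMD8 had 14 and 10.

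At 150 nM more members were called in TMD8 than in OCI-Ly1, each line in its own fit. The direct test of the difference between lines called 10 of 40 members (25%), near the 23.3% of all genes tested. In OCI-Ly1 1 member of 39 was called, SAMD9L, which rose, beside 0.889% of all genes tested (0.748% higher and 0.141% lower). None fell by edgeR or DESeq2. At an unadjusted p below 0.05 by edgeR, 4 were higher (IFI35, IRF7, SAMD9 and SAMD9L) and 2 lower (BST2 and EPSTI1). In TMD8 12 rose and 9 fell (53.8%), beside 44.2% of all genes (19.2% higher and 25% lower). The TMD8 numbers were 16 and 7 with library size alone, 5 and 11 on log2(TPM + 1), and 10 and 9 on that scale with each library's median removed. Of the TMD8 calls, those on GBP1, IFI27, IFI44L, IFIT2, PARP14 and UBA7 each ended, at adjusted p of 0.053 to 0.19, without at least 1 library of the DMSO or 150 nM group. Going from 150 to 500 nM in OCI-Ly1, 11 rose and 10 fell (53.8%, beside 46.2% of all genes, 25.1% higher and 21.1% lower). The same step in TMD8 had 10 rises and 6 falls (41%, beside 28.7% of all genes, 13.7% higher and 15% lower). SAMD9L, which encodes a growth-restraining antiviral protein, measured 41.1, 43.5 and 43.98 CPM with DMSO and 49.9, 53.1 and 56.5 at 150 nM in OCI-Ly1. The groups did not overlap, with a log2 fold change of 0.31 ± 0.07 (SE), adjusted p = 0.035 by edgeR. Leaving out 1 library ended that call for 5 of the 9 libraries: adjusted p = 0.15 without DMSO replicate 1, 0.11 without DMSO replicate 2, 0.15 and 0.18 without 150 nM replicate 2 and 3, and 0.063 without 500 nM replicate 3.

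**Figure D1:**
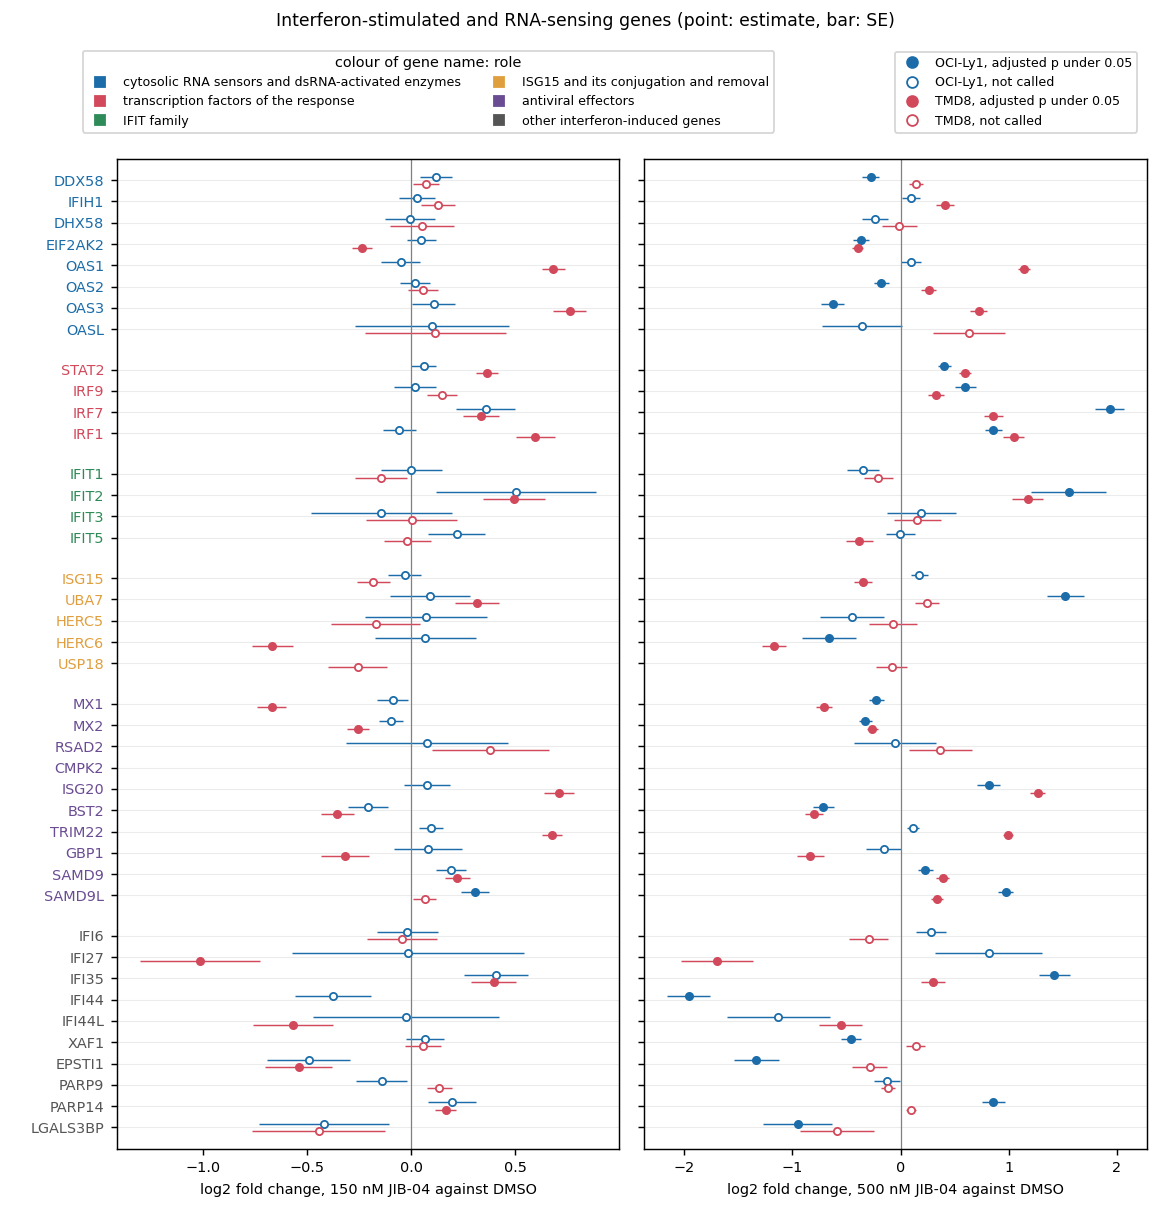
Log2 fold change of each gene at 150 nM (left) and 500 nM (right) JIB-04 against DMSO, with bars for the SE, in OCI-Ly1 (blue) and TMD8 (red); filled points are called at an adjusted p below 0.05, and genes are grouped by role. In OCI-Ly1 only SAMD9L is filled at 150 nM, whereas at 500 nM filled points lie on both sides of 0 in both lines; on log2(TPM + 1) IRF9, OAS2, SAMD9L and IFI35 in TMD8 lie just below 0 instead.

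The interferon genes themselves, the ligands of the pathway, were close to undetected at every dose. None of the 21 listed type I, II and III genes passed the low-count filter in either line. Of these, 6 had 0 counts in all 18 libraries, and 16 never exceeded 3 counts in any library. The 5 others were IFNB1, IFNA5, IFNG, IFNK and IFNL1. IFNB1, the interferon that most cells make first, had 0, 0 and 1 counts in the DMSO libraries of OCI-Ly1, 1, 0 and 1 at 150 nM, then 2, 7 and 1 at 500 nM. In TMD8 its counts were 1, 1 and 1, then 1, 0 and 2 and 1, 1 and 0. The largest count of any interferon gene was 10, for IFNK in replicate 2 of OCI-Ly1 at 500 nM, the library that also held the 7 counts of IFNB1. The 21 genes together had 8, 3 and 4 counts in OCI-Ly1 with DMSO and 11, 22 and 10 at 500 nM, and in TMD8 7, 15 and 6 with DMSO and 13, 8 and 7 at 500 nM. A count of 0 allows up to 3 counts, which is 0.0858 to 0.169 CPM across the OCI-Ly1 libraries and 0.154 to 0.312 CPM in TMD8, for counting error only. An induction below that was not detectable at this depth.

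The receptors and kinases downstream of interferon were expressed in both lines. Of 9 listed genes, 5 rose and 1 fell at 500 nM in OCI-Ly1, and 3 rose and 1 fell in TMD8. Over all genes tested, 53.6% (OCI-Ly1) and 60.7% (TMD8) were called at that dose. The receptor chain IFNAR1 measured 73.5 ± 4.09 CPM with DMSO and 73.4 ± 6.48 at 500 nM in OCI-Ly1, and 79.9 ± 4.59 and 83.7 ± 1.16 in TMD8 (adjusted p = 0.99 and 0.11 by edgeR). Its partner IFNAR2 was 33.2 ± 1.66 and 32.9 ± 0.9305 CPM in OCI-Ly1, with a log2 fold change of -0.01 ± 0.07 (SE), adjusted p = 0.95. In TMD8 IFNAR2 went from 61.04, 57.1 and 56.2 to 66.7, 67.2 and 61.6 CPM, a log2 fold change of 0.20 ± 0.05 (SE), adjusted p = 0.004, with no overlap between the groups. The kinase TYK2 rose in both lines, by 0.48 ± 0.06 in OCI-Ly1 and 0.14 ± 0.05 in TMD8 on the log2 scale. JAK1 rose by 0.41 ± 0.06 in OCI-Ly1 (adjusted p = 1.5e-05) and in TMD8 had a log2 fold change of -0.19 ± 0.06 (adjusted p = 0.018, edgeR). JAK2, a kinase of the interferon-gamma receptor, rose in OCI-Ly1 from 21.5 ± 1.91 to 32.8 ± 1.49 CPM, and was 105 ± 8.44 and 97.8 ± 2.79 CPM in TMD8 (log2 fold change -0.06 ± 0.05 (SE), adjusted p = 0.31).

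The 8 cytosolic RNA sensors and double-stranded RNA-activated enzymes moved differently in the lines. In OCI-Ly1 at 500 nM none rose by edgeR, 0 also at an unadjusted p below 0.05, and 4 fell (DDX58, EIF2AK2, OAS2 and OAS3). In TMD8 4 rose (IFIH1, OAS1, OAS2 and OAS3) and EIF2AK2 fell, but on log2(TPM + 1) OAS2 was at -0.10 there (adjusted p = 0.49 by limma). Among all genes tested, 27.7% rose and 25.9% fell in OCI-Ly1, and 29.9% rose and 30.7% fell in TMD8. The OAS enzymes make 2-5A, the messenger that turns on RNase L, once they bind double-stranded RNA. OAS1 in TMD8 measured 45.9, 42.9 and 43.3 CPM with DMSO, 66.2, 74.2 and 70.9 at 150 nM, then 94.8, 93.8 and 95.2 at 500 nM. The 3 groups did not overlap, and the 500 nM level was 2.199-fold that with DMSO (log2 1.14 ± 0.05 (SE), adjusted p = 9.6e-12 by edgeR). In OCI-Ly1 OAS1 was 24.2, 22.2 and 20.7 CPM with DMSO and 21.6, 24.9 and 24.97 at 500 nM, which overlap (log2 0.09 ± 0.09 (SE), adjusted p = 0.42).

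OAS3, the largest of the OAS enzymes, went in opposite directions. In OCI-Ly1 it was 15.6, 15.4 and 15.3 CPM with DMSO, 17.8, 14.6 and 17.6 at 150 nM, then 8.81, 10.9 and 10.3 at 500 nM. The 500 nM libraries lay below all DMSO libraries, a fall by 0.63 ± 0.10 on the log2 scale (adjusted p = 6.3e-05, edgeR). OAS3 in TMD8 was 19.7, 21.2 and 19.1 CPM with DMSO, 30.3, 37.02 and 33.97 at 150 nM, then 31.6, 33.5 and 31.3 at 500 nM. Both doses stood above DMSO there, by 0.76 ± 0.08 and 0.72 ± 0.08. OAS2 was 30.2, 33.5 and 30.5 CPM with DMSO and 28.4, 26.01 and 28.5 at 500 nM in OCI-Ly1, and 64.3, 53.5 and 54.04 and 66.8, 64.6 and 69.2 in TMD8. Its log2 fold changes were -0.18 ± 0.07 (SE), adjusted p = 0.044 in OCI-Ly1 and 0.26 ± 0.07 (SE), adjusted p = 0.0046 in TMD8. The OCI-Ly1 call on OAS2 was not firm: it ended without DMSO replicate 2 (adjusted p = 0.16) or 3 (0.051), without 500 nM replicate 1 (0.058), 2 (0.14) or 3 (0.058), with DESeq2 (0.054), with library size alone (0.29), with only the 6 libraries compared (0.06) and with limma on log2(TPM + 1) (0.21).

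EIF2AK2, which encodes PKR, the kinase that halts translation on double-stranded RNA, fell in both lines. It went from 61.8, 62.9 and 66.4 to 47.96, 48.05 and 52.2 CPM in OCI-Ly1, a log2 fold change of -0.36 ± 0.07 (SE), adjusted p = 0.00033 by edgeR. In TMD8 it went from 87.6, 81.04 and 84.2 CPM with DMSO to 72.6, 70.4 and 71.2 at 150 nM, then 61.9, 62.02 and 63.9 at 500 nM (log2 -0.40 ± 0.05 (SE), adjusted p = 1.6e-06 at 500 nM). The groups at 500 nM did not overlap those with DMSO in either line. RIG-I (DDX58) was 19.9 ± 0.763 CPM with DMSO and 16.4 ± 0.182 at 500 nM in OCI-Ly1 (log2 -0.27 ± 0.08 (SE), adjusted p = 0.007), and 28.9 ± 0.896 and 31.3 ± 0.723 in TMD8 (log2 0.15 ± 0.06 (SE), adjusted p = 0.061). The OCI-Ly1 call on DDX58 ended with library size alone (adjusted p = 0.05) and with limma on log2(TPM + 1) (0.25). MDA5 (IFIH1) was 25.2 ± 1.98 and 26.8 ± 2.21 CPM in OCI-Ly1 (adjusted p = 0.36) and rose from 30.8 ± 3.48 to 39.8 ± 2.05 in TMD8 (adjusted p = 0.00026). The 2 remaining sensors, DHX58 and OASL, were called in neither line, with log2 fold changes at 500 nM of -0.24 and -0.36 for OCI-Ly1 and -0.01 and 0.63 in TMD8.

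Among 20 further sensing genes (adaptors, kinases and toll-like receptors), 17 were tested in OCI-Ly1, of which 2 rose and 7 fell at 500 nM, and 18 in TMD8, of which 4 rose and 7 fell. The shares over all genes were 27.7% higher and 25.9% lower in OCI-Ly1, and 29.9% and 30.7% in TMD8. MYD88, the adaptor shared by most toll-like receptors, fell from 26.96 ± 1.52 to 14.1 ± 1.01 CPM in OCI-Ly1, and TMD8 had 97.98 ± 8.31 and 59.4 ± 0.8002 (adjusted p = 9.7e-08 and 2e-08, edgeR). The RNA receptor TLR7 rose in both lines, from 7.49 ± 0.7901 to 12.4 ± 0.576 CPM and from 46.5 ± 2.34 to 84.03 ± 1.95. The DNA receptor TLR9 fell in both, OCI-Ly1 going from 7.36 ± 0.945 to 4.08 ± 0.458 CPM and TMD8 from 154 ± 11.2 to 119 ± 5.77. MAVS, through which RIG-I and MDA5 signal, was 139 ± 4.42 CPM with DMSO and 118 ± 2.09 at 500 nM in OCI-Ly1 (log2 -0.24 ± 0.05 (SE), adjusted p = 0.00081), and 152 ± 11.3 and 157 ± 3.94 in TMD8 (log2 0.08 ± 0.06 (SE), adjusted p = 0.21).

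The 4 transcription factors of the response (STAT2, IRF9, IRF7 and IRF1) all rose at 500 nM in both lines on the count scale, although IRF9 in TMD8 was at -0.04 on log2(TPM + 1), where the median of all genes was -0.22. Of all genes tested in both lines, 14.1% rose in both at that dose. IRF7, the factor that amplifies type I interferon transcription, had the largest rise among the members tested in OCI-Ly1. It measured 5.83, 4.79 and 4.34 CPM with DMSO, 7.44, 6.39 and 5.33 at 150 nM, then 20.2, 17.5 and 19.3 at 500 nM. The 500 nM libraries were 3.81-fold above DMSO (log2 1.93 ± 0.13 (SE), adjusted p = 1.2e-09, edgeR), with no overlap, while the 150 nM libraries overlapped those with DMSO (adjusted p = 0.38). In TMD8 IRF7 was 14.3, 15.4 and 15.2 CPM with DMSO, 16.6, 18.9 and 20.6 at 150 nM, then 26.9, 25.8 and 26.9 at 500 nM. It stood higher at each dose, with log2 fold changes of 0.33 ± 0.09 and 0.86 ± 0.09.

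IRF1, an early factor that also answers interferon-gamma and NF-kB, was 19.7, 21.6 and 18 CPM with DMSO, 19.4, 18.5 and 19.1 at 150 nM, then 36.4, 34.6 and 35.8 at 500 nM in OCI-Ly1 (log2 0.86 ± 0.08 (SE), adjusted p = 4.4e-08 at 500 nM, edgeR). The TMD8 values were 13.8, 16.3 and 18.5, then 23.1, 23.7 and 26.4 and 32.5, 31.97 and 34.04 CPM (log2 1.04 ± 0.09 (SE), adjusted p = 3.3e-08 at 500 nM). All 500 nM libraries lay above all DMSO libraries in both lines. STAT2 and IRF9 belong to the complex that binds the ISRE. STAT2 rose in OCI-Ly1 from 92.01 ± 3.47 to 122 ± 5.73 CPM, and the TMD8 means were 101 ± 5.16 and 149 ± 3.24. IRF9 in OCI-Ly1 rose from 11.8 ± 1.01 to 17.9 ± 1.42 CPM, and in TMD8 it was 35.3 ± 3.25 and 43.4 ± 0.733 (log2 0.33 ± 0.07 (SE), adjusted p = 0.00096; on log2(TPM + 1) its sign turned).

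**Figure D2:**
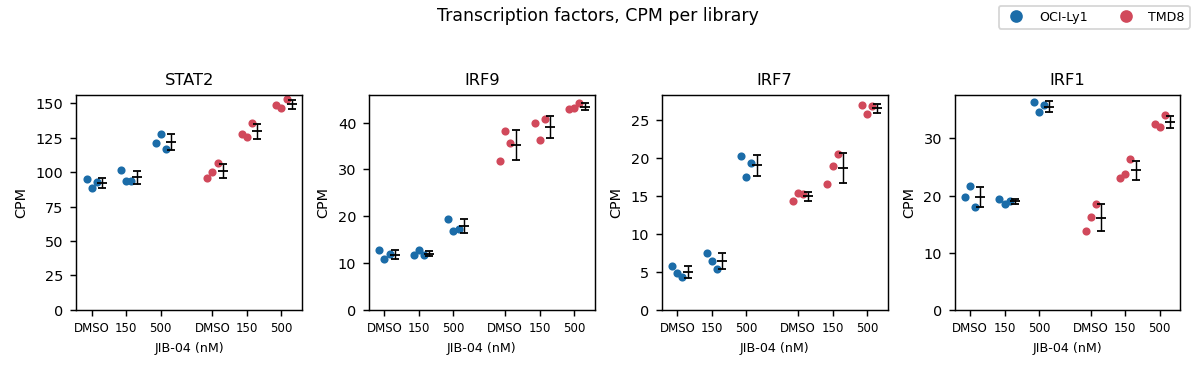
CPM of STAT2, IRF9, IRF7 and IRF1 in each library (points) with the mean and SD of each group (black, n = 3), by dose of JIB-04, in OCI-Ly1 (blue) and TMD8 (red); each axis starts at 0. IRF7 in OCI-Ly1 goes from 4.98 to 19.01 CPM on average at 500 nM, and all 500 nM points lie above all DMSO points of the same line; on log2(TPM + 1) IRF9 in TMD8 turned to -0.04.

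The IFIT family, whose proteins bind viral RNA ends and are among the strongest targets of interferon, did not move as a block. IFIT2 rose in both lines, and no other of the 4 members rose in either. IFIT2 was 4.63, 3.86 and 3.62 CPM with DMSO, 5.41, 5.59 and 5.85 at 150 nM, then 7.98, 10.2 and 8.33 at 500 nM in TMD8 (log2 1.17 ± 0.15 (SE), adjusted p = 1.7e-06 at 500 nM, edgeR). In OCI-Ly1 it was low, with 0.537, 0.338 and 0.503 CPM with DMSO and 1.52, 1.19 and 1.43 at 500 nM (log2 1.55 ± 0.35 (SE), adjusted p = 0.0011). The groups did not overlap in either line. IFIT1 was 5.25, 5.63 and 5.23 CPM with DMSO and 3.63, 4.905 and 4.15 at 500 nM in OCI-Ly1 (log2 -0.35 ± 0.15 (SE), adjusted p = 0.056), and 8.25, 6.67 and 7.81 and 6.15, 6.84 and 6.25 in TMD8 (log2 -0.21 ± 0.13 (SE), adjusted p = 0.18). Its log2 fold change was below 0 in both lines, past the threshold in neither. IFIT3 had log2 fold changes of 0.19 ± 0.32 and 0.16 ± 0.22, also not called. IFIT5 measured 20.3, 13.7 and 16.5 CPM with DMSO and 13.05, 12.7 and 11.9 at 500 nM in TMD8, a log2 fold change of -0.38 ± 0.12 (SE), adjusted p = 0.012 that missed the threshold without DMSO replicate 1 (0.066). In OCI-Ly1 IFIT5 was 5.85 ± 0.902 CPM with DMSO and 5.87 ± 0.475 at 500 nM.

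Of the 5 genes of ISG15 conjugation, the difference between lines at 500 nM was called for ISG15, UBA7 and USP18. It was not called for HERC5 and HERC6. ISG15 itself, a ubiquitin-like protein attached to others during infection, was 47.5, 46.6 and 42.1 CPM with DMSO and 52.5, 53.9 and 47 at 500 nM in OCI-Ly1 (log2 0.17 ± 0.08 (SE), adjusted p = 0.066, edgeR). In TMD8 it fell from 21.7, 21.6 and 22.02 to 18.7, 15.6 and 15.6 CPM (log2 -0.35 ± 0.08 (SE), adjusted p = 0.0016). The groups overlapped in OCI-Ly1 and not in TMD8. UBA7, the enzyme that activates ISG15, was 2.34, 1.58 and 2.4 CPM with DMSO, 2.43, 2.301 and 2.102 at 150 nM, then 5.61, 6.47 and 6.37 at 500 nM in OCI-Ly1, a 2.87-fold rise at 500 nM (log2 1.52 ± 0.17 (SE), adjusted p = 9.7e-07). In TMD8 UBA7 was 9.12, 8.65 and 10.5 and 10.3, 11.2 and 11.6 CPM (log2 0.25 ± 0.11 (SE), adjusted p = 0.065). The ligase gene HERC6 measured 17.7, 17.4 and 19.8 CPM with DMSO, 12.3, 11.8 and 10.6 at 150 nM, then 6.96, 8.84 and 8.22 at 500 nM in TMD8. It fell there at both doses, by 0.67 ± 0.10 and 1.17 ± 0.11 on the log2 scale. In OCI-Ly1 HERC6 was 1.59 ± 0.0169 and 0.997 ± 0.178 CPM, a log2 fold change of -0.66 ± 0.25 (SE), adjusted p = 0.032. That call ended, at adjusted p of 0.05 to 0.089, when any DMSO library or 500 nM replicate 1 or 2 was left out, with DESeq2 (0.064) and with library size alone (0.058). HERC5, the ligase for ISG15 in human cells, was called in neither line (log2 -0.45 ± 0.30 and -0.07 ± 0.22).

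USP18 removes ISG15 and blocks the receptor IFNAR2, and it is one of the genes most tightly tied to interferon signalling. USP18 in TMD8 was 7.58, 6.49 and 5.82 CPM with DMSO and 6.83, 5.76 and 5.52 at 500 nM, which overlap (log2 -0.08 ± 0.14 (SE), adjusted p = 0.64, edgeR). In OCI-Ly1 it was below the low-count filter, with 5, 1 and 2 counts with DMSO, 8, 1 and 1 at 150 nM, then 16, 8 and 17 at 500 nM. In the fit of all 18 libraries its response at 500 nM was higher in OCI-Ly1 than in TMD8 (log2 difference 2.0 ± 0.55, adjusted p = 0.0044), a value that rests on those few counts. USP18 has a near-identical copy, USP41, so that the program's split of reads between them is uncertain.

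The 10 antiviral effectors also divided. In both lines ISG20, SAMD9 and SAMD9L rose and MX1, MX2 and BST2 fell at 500 nM. TRIM22 rose and GBP1 fell in TMD8, and neither was called in OCI-Ly1. The scale mattered for 1 of these directions: SAMD9L in TMD8 was at -0.03 on log2(TPM + 1). ISG20 is an exonuclease that degrades viral RNA. It was 13.2, 10.6 and 14.2 CPM with DMSO, 13.6, 13.7 and 13.2 at 150 nM, then 25.5, 21.5 and 20.3 at 500 nM in OCI-Ly1 (log2 0.82 ± 0.11 (SE), adjusted p = 5.3e-06 at 500 nM). The TMD8 values were 14.7, 13.6 and 14.4, then 22.6, 24.1 and 22.9 and 33.9, 33.4 and 32.8 CPM (log2 1.26 ± 0.07 (SE), adjusted p = 6e-11 at 500 nM). The 3 TMD8 groups did not overlap, and in OCI-Ly1 the 500 nM group stood above the other two.

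BST2 (tetherin) holds budding virus at the cell surface. It carried the same ISRE letters as ISG20 and went the other way, from 42.2, 42.7 and 36.8 CPM with DMSO to 25.1, 27.2 and 21.8 at 500 nM in OCI-Ly1, and TMD8 had 38.8, 42.2 and 43.9 against 26.6, 21.7 and 21.4. The log2 fold changes were -0.71 ± 0.10 (SE), adjusted p = 8.6e-06 and -0.80 ± 0.08 (SE), adjusted p = 1.8e-07, and the groups did not overlap in either line. MX1, a dynamin-like GTPase widely used as a marker of interferon exposure, fell in TMD8 from 77.9, 64.8 and 70.6 CPM with DMSO to 45.9, 47.98 and 40.3 at 150 nM, then 41.03, 42.7 and 44.1 at 500 nM (log2 -0.71 ± 0.07 (SE), adjusted p = 1.5e-07). In OCI-Ly1 it was 24.8, 23.8 and 24.9 CPM with DMSO and 22.03, 20.8 and 19.96 at 500 nM (log2 -0.22 ± 0.07 (SE), adjusted p = 0.015), which missed the threshold without 500 nM replicate 3 (0.069), with library size alone (0.11) and with limma on log2(TPM + 1) (0.48). MX2 fell in OCI-Ly1 from 120.3 ± 5.61 to 95.7 ± 3.66 CPM, and the TMD8 means were 141 ± 11.2 and 115 ± 3.09.

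TRIM22, a ligase that restrains several viruses, was among the clearest differences between the lines. In TMD8 it was 103, 93.8 and 91.5 CPM with DMSO, 153, 155 and 152 at 150 nM, then 182, 192 and 185 at 500 nM, with no overlap (log2 0.99 ± 0.05 (SE), adjusted p = 1.5e-11 at 500 nM, edgeR). In OCI-Ly1 it was 78.3, 83.7 and 79.6 CPM with DMSO and 87.1, 86.6 and 86.9 at 500 nM (log2 0.11 ± 0.06 (SE), adjusted p = 0.098). SAMD9L showed the reverse emphasis: it reached 88.2, 78.9 and 84.3 CPM at 500 nM in OCI-Ly1 (log2 0.97 ± 0.07 (SE), adjusted p = 1.2e-09), and in TMD8 it was 62.7, 55.5 and 55.2 with DMSO and 71.5, 70.9 and 71.3 at 500 nM (log2 0.34 ± 0.05 (SE), adjusted p = 3.8e-05). SAMD9 in OCI-Ly1 rose from 129 ± 8.95 to 151 ± 2.64 CPM (adjusted p = 0.011, and 0.074 without DMSO replicate 1) and in TMD8 from 56.6 ± 5.52 to 72.3 ± 2.27. GBP1, a guanylate-binding protein induced mainly by interferon-gamma, fell in TMD8 from 13.1 ± 0.785 to 7.23 ± 0.866 CPM, and was 6.22 ± 1.66 and 5.497 ± 0.2196 CPM in OCI-Ly1 (adjusted p = 0.42).

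RSAD2 (viperin) and CMPK2 stand next to each other in the genome and are strongly induced by interferon in many cells. RSAD2 was 1.304, 0.507 and 0.852 CPM with DMSO and 0.944, 0.483 and 1.17 at 500 nM in OCI-Ly1, and 1.14, 2.46 and 1.78 and 2.43, 2.38 and 1.98 in TMD8, not called in either (adjusted p = 0.92 and 0.29, edgeR). CMPK2 was not tested. It had 3, 0 and 0 counts with DMSO, 4, 5 and 2 at 150 nM, then 12, 15 and 12 at 500 nM in OCI-Ly1, and 0 counts in all 9 TMD8 libraries.

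**Figure D3:**
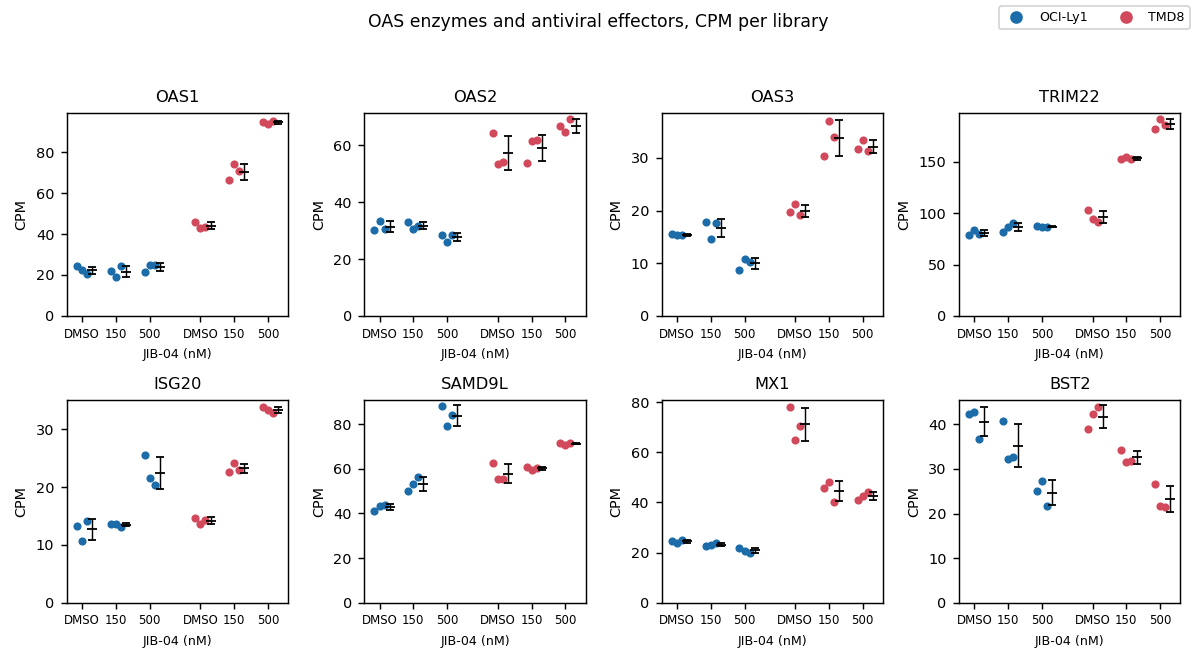
CPM of 3 OAS enzymes and 5 antiviral effectors in each library (points) with the mean and SD of each group (black, n = 3), by dose of JIB-04, in OCI-Ly1 (blue) and TMD8 (red); each axis starts at 0. OAS1 and TRIM22 rise with dose in TMD8 alone by the test of each line, BST2 falls in both, and OAS3 falls in OCI-Ly1 and rises in TMD8; OAS2 and SAMD9L in TMD8 turned to -0.10 and -0.03 on log2(TPM + 1).

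Of the 10 other interferon-induced genes, 2 rose and 4 fell at 500 nM in OCI-Ly1, and 1 rose and 2 fell in TMD8. Over the whole transcriptome 53.6% of tested genes were called in OCI-Ly1 and 60.7% in TMD8. IFI44, a strongly interferon-induced cytosolic protein, had the deepest fall of the set in OCI-Ly1. It was 4.75, 5.75 and 5.61 CPM with DMSO, 3.64, 4.48 and 4.31 at 150 nM, then 1.12, 1.86 and 1.204 at 500 nM (log2 -1.96 ± 0.20 (SE), adjusted p = 2.7e-07 at 500 nM, edgeR). In TMD8 it was too low to test, at 6, 3 and 5 counts with DMSO and 8, 4 and 2 at 500 nM. IFI35, a partner of NMI that modulates RIG-I signalling, rose in OCI-Ly1 from 3.297, 3.27 and 2.79 to 8.33, 8.92 and 7.701 CPM (log2 1.42 ± 0.14 (SE), adjusted p = 2.4e-07). TMD8 had 10.6, 9.12 and 10.2 CPM with DMSO and 11.7, 13.7 and 10.4 at 500 nM (log2 0.30 ± 0.11 (SE), adjusted p = 0.026), where the groups overlapped. That TMD8 call ended without DMSO replicate 2 (0.11), without 500 nM replicate 2 (0.19) and with DESeq2 (0.076), and on log2(TPM + 1) its sign turned (-0.07).

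IFI27, a mitochondrial protein and one of the most responsive interferon markers, fell in TMD8 from 2.55, 2.05 and 2.097 CPM with DMSO to 1.29, 1.38 and 0.718 at 150 nM, then 1.01, 0.384 and 0.521 at 500 nM (log2 -1.70 ± 0.33 (SE), adjusted p = 0.00026 at 500 nM, edgeR). In OCI-Ly1 it was 0.307, 0.225 and 0.426 CPM with DMSO and 0.973, 0.446 and 0.285 at 500 nM (log2 0.81 ± 0.49 (SE), adjusted p = 0.18); replicate 1 at 500 nM was the highest of these libraries. PARP14, an ADP-ribosyltransferase, rose in OCI-Ly1 from 9.17 ± 1.36 to 16.7 ± 1.37 CPM and was 163 ± 11.9 and 169.8 ± 2.98 in TMD8 (adjusted p = 0.11). EPSTI1 fell in OCI-Ly1 from 4.26 ± 0.616 to 1.68 ± 0.335 CPM, and XAF1, an apoptosis-promoting protein, from 36.9 ± 4.61 to 27.01 ± 1.16. LGALS3BP, a secreted glycoprotein, had a log2 fold change of -0.95 ± 0.32 (SE), adjusted p = 0.017 in OCI-Ly1, which missed the threshold without 500 nM replicate 3 (0.083). IFI44L fell in TMD8 from 4.36 ± 0.1904 to 2.87 ± 0.823 CPM (adjusted p = 0.022), and the call ended without DMSO replicate 2 (0.055) or without 500 nM replicate 2 (0.15) or 3 (0.054), and with library size alone (0.056). IFI6 and PARP9 were called in neither line.

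Negative regulators of the pathway and other interferon-stimulated genes outside the 41 also went both ways. Beside the counts in this paragraph, 27.7% of all genes rose and 25.9% fell at 500 nM in OCI-Ly1, and 29.9% and 30.7% in TMD8. Of 16 negative regulators, 5 rose and 3 fell among 15 tested in OCI-Ly1, and 3 rose and 8 fell among 16 in TMD8. SOCS1, which blocks JAK kinases and is itself induced by their signalling, rose in both lines, OCI-Ly1 going from 10.3, 6.65 and 7.28 to 17.3, 17.8 and 14.5 CPM and TMD8 from 21.6, 26.4 and 27.4 to 70.6, 72.5 and 72.1 (log2 1.02 ± 0.14 (SE), adjusted p = 6.3e-06 and 1.54 ± 0.09 (SE), adjusted p = 7.1e-11, edgeR). SOCS3 fell in TMD8 from 243 ± 24.3 to 105 ± 0.135 CPM and had 0 to 3 counts in each OCI-Ly1 library. The editing enzyme ADAR, which marks double-stranded RNA as self, was 454 ± 13.4 CPM with DMSO and 446 ± 9.86 at 500 nM in OCI-Ly1 (log2 -0.02 ± 0.04 (SE), adjusted p = 0.67) and fell in TMD8 from 617 ± 37.2 to 436 ± 1.49 (log2 -0.47 ± 0.05 (SE), adjusted p = 2.8e-07). SAMHD1, an enzyme that limits nucleotides, fell in both, by 0.16 ± 0.07 and 0.95 ± 0.07 on the log2 scale. Among 53 other interferon-stimulated genes, 10 rose and 19 fell of 48 tested in OCI-Ly1, and 14 rose and 19 fell of 51 in TMD8. IFITM1 and IFITM2, which block viral entry, fell in TMD8 from 6.93 ± 0.475 to 2.32 ± 0.412 and from 9.22 ± 0.863 to 3.69 ± 0.618 CPM. Similar sequences within this gene family make the split of reads between its members uncertain. IFITM1 was too low to test in OCI-Ly1 alone. In the fit of all 18 libraries its response at 500 nM was higher in OCI-Ly1 (log2 difference 6.15 ± 1.09 (SE), adjusted p = 7.8e-05, edgeR), a value that rests on few counts there. For IFITM2 the difference was not called (0.62 ± 0.43). GBP2 rose in TMD8 from 2.45 ± 0.312 to 6.18 ± 0.765 CPM, and its counts in OCI-Ly1 went from 3, 1 and 4 to 92, 58 and 50.

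Taking the lines together at 500 nM, 38 members were tested in both. Of these, 9 rose in both lines (IFI35, IFIT2, IRF1, IRF7, IRF9, ISG20, SAMD9, SAMD9L and STAT2; 23.7%), where 14.1% of the 14483 genes tested in both did so. A further 5 fell in both (BST2, EIF2AK2, HERC6, MX1 and MX2; 13.2%), beside 13.7% of all genes. OAS2 and OAS3 fell in OCI-Ly1 and rose in TMD8 (5.26%, beside 3.49% of all genes), and none went the other way, as 5.01% of all genes did. The 8 genes called in neither line were DHX58, HERC5, IFI6, IFIT1, IFIT3, OASL, PARP9 and RSAD2. Members with a match to the ISRE letters went both ways: of the 18 genes with a match in the upstream window, 3 rose and 5 fell in OCI-Ly1, and of the 17 of these tested in TMD8, 4 rose and 6 fell. Of the 13 tested genes whose window held no match, 5 rose and 5 fell in OCI-Ly1, and 6 rose and 3 fell in TMD8.

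The difference between lines was tested directly, OCI-Ly1 response minus TMD8 response. At 500 nM 21 of 40 members differed (52.5%, beside 46.4% of all genes tested, 28.2% higher and 18.1% lower), with 12 responses higher in OCI-Ly1 and 9 lower. On log2(TPM + 1) those numbers were 21 and 5, and 11 and 16 with each library's median removed. At 150 nM 10 of 40 differed (25%, beside 23.3%, 15% higher and 8.33% lower), 4 higher and 6 lower. The lowest values at 500 nM were those of IFI44 (log2 difference -2.39 ± 0.60 (SE), adjusted p = 0.0019, edgeR), OAS3 (-1.32 ± 0.13 (SE), adjusted p = 1.3e-08) and OAS1 (-1.02 ± 0.11 (SE), adjusted p = 3.5e-08). The highest were those of IFI27 (2.55 ± 0.61 (SE), adjusted p = 0.0013), USP18 (2.0) and UBA7 (1.29 ± 0.20 (SE), adjusted p = 7.3e-06). IFI44 is barely detected in TMD8, and its difference had an adjusted p of 0.051 without TMD8 500 nM replicate 1. IRF7 responded more in OCI-Ly1 by 1.10 ± 0.16, and TRIM22 less by 0.85 ± 0.07. For IRF1, STAT2, IFIT2 and BST2 the difference was not called (log2 -0.16 ± 0.12, -0.16 ± 0.08, 0.40 ± 0.33 and 0.12 ± 0.14).

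**Figure D4:**
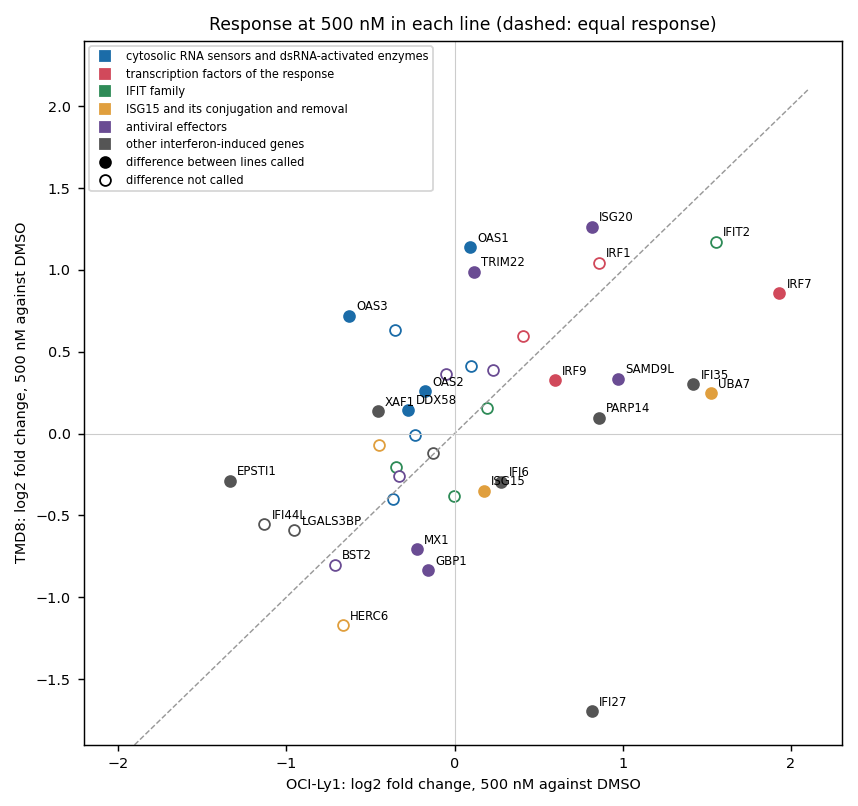
Log2 fold change at 500 nM against DMSO in OCI-Ly1 (x axis) and TMD8 (y axis) for the 38 genes tested in both lines, coloured by role; filled points have a called difference between lines and the dashed line marks an equal response. IRF7, UBA7, IFI35 and SAMD9L lie below the dashed line on the right, while OAS1, OAS3 and TRIM22 lie above it; DDX58, ISG20 and OAS2 differences turned sign on log2(TPM + 1).

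With DMSO alone most of the genes were higher in TMD8. Of 40 tested, 29 were lower and 5 higher in OCI-Ly1, so that 85% differed, where 76.7% of all genes tested did (37.8% higher and 39% lower). The 5 higher in OCI-Ly1 were DHX58, IFI44, IRF1, ISG15 and SAMD9. This balance rests on the scaling between lines: on log2(TPM + 1), where the median of all genes was 0.61 against -0.0246 in the count fit, 20 were higher and 14 lower in OCI-Ly1, with library size alone 8 were higher and 24 lower, and with each library's median removed 7 were higher and 25 lower. Several gaps were larger than the move between those medians, among them those given here. USP18 was also far lower in OCI-Ly1, a gap that rests on few counts there. PARP14 measured 9.24, 7.77 and 10.5 CPM in OCI-Ly1 and 177, 155 and 156 in TMD8 (log2 -4.13 ± 0.08 (SE), adjusted p = 7.6e-26, edgeR). PARP9 was 7.05, 7.099 and 7.08 and 104, 87 and 88.6 CPM (log2 -3.72 ± 0.08 (SE), adjusted p = 1.4e-24). HERC6 was -3.52 ± 0.15 and IFIT2 -3.07 ± 0.25 on the same log2 scale. IFI44 went the other way, with 4.75, 5.75 and 5.61 CPM in OCI-Ly1 and 0.402, 0.175 and 0.262 in TMD8.

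Per length, the most abundant of the genes with DMSO were ISG15 (115 ± 4.88 TPM), BST2 (66.9 ± 3.81 TPM) and MX2 (55.3 ± 3.42 TPM) in OCI-Ly1. In TMD8 they were BST2 (35.2 ± 0.444 TPM), MX2 (33.4 ± 5.32 TPM) and ISG15 (28.5 ± 1.9 TPM). The means of BST2 and MX2 in TMD8 differed by less than the SD of MX2. The same 3 genes led in both lines before treatment, and RSAD2, OASL and CMPK2 were low in both, at 0.344 ± 0.147, 0.538 ± 0.159 and 0.0171 ± 0.0296 TPM in OCI-Ly1 and 0.349 ± 0.114, 0.3998 ± 0.104 and 0 TPM in TMD8. Summed over the 41 genes, the level was 897.7 to 926 CPM with DMSO and 974 to 1008 at 500 nM in OCI-Ly1, and 1293 to 1412 and 1530.1 to 1537 in TMD8. On this CPM scaling the sum was higher at 500 nM in both lines, with no overlap. It is given on no other scale, and on log2(TPM + 1) more members were called lower than higher in TMD8 at that dose. Abundant genes weigh most in such a sum, and members went both ways, so it does not show a rise of the set as a whole. At 500 nM SAMD9, STAT2 and MX2 were the largest parts of the sum in OCI-Ly1 (151 ± 2.64, 122 ± 5.73 and 95.7 ± 3.66 CPM), as were TRIM22, PARP14 and STAT2 in TMD8 (186 ± 4.796, 169.8 ± 2.98 and 149 ± 3.24 CPM). These are levels and not changes: MX2 fell in OCI-Ly1, and PARP14 was not called in TMD8.

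**Figure D5:**
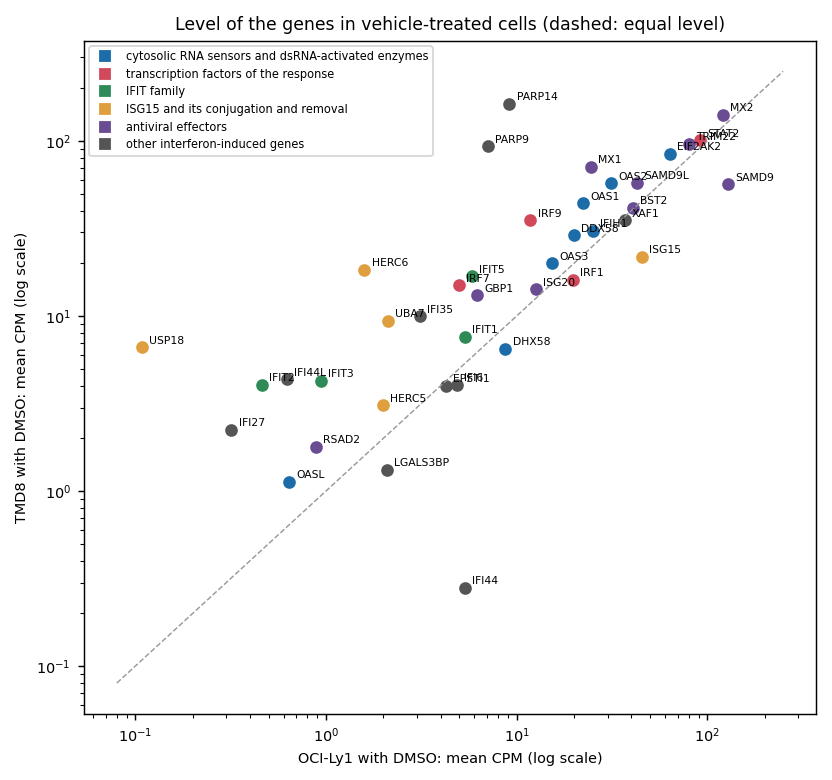
Mean CPM with DMSO in OCI-Ly1 (x axis) and TMD8 (y axis), both on log scales, for the 40 genes with counts in both lines, coloured by role; the dashed line marks an equal level. Most points lie above the line, PARP9, PARP14, HERC6 and USP18 farthest, with IFI44, SAMD9 and ISG15 below it; on log2(TPM + 1) 20 genes were instead called higher in OCI-Ly1 and 14 lower.

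Position in the genome was a further feature the list did not use. In RefSeq's gene table, 17 of the 41 genes fell into 7 groups of neighbours whose members lay at most 100 kb from the next. Calls were shared in some groups and not in others, and differences between neighbours were not tested. In the IFIT group (IFIT2, IFIT3, IFIT1 and IFIT5), IFIT2 rose in both lines and its neighbours did not. The OAS group (OAS1, OAS3 and OAS2) rose as a whole in TMD8, except that OAS2 turned sign on log2(TPM + 1), while OAS3 and OAS2 fell in OCI-Ly1. MX1 and MX2 fell in both lines, and SAMD9 and SAMD9L rose in both, apart from the turn of SAMD9L on log2(TPM + 1). HERC6 fell in both lines and HERC5 was called in neither. The other groups were IFI44L with IFI44 and CMPK2 with RSAD2. At 500 nM in OCI-Ly1 IFI44 fell, and IFI44L was lower only at an unadjusted p below 0.05 by edgeR.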

How the data were processed

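RNA-seq libraries, 9 of each lymphoma line, were deposited as gene tables. The estimated counts deposited by the authors came from kallisto 0.46.0, and the deposited TPM values from the same program, per the submitters' processing notes, which also name R 4.3.1, DESeq2 1.40.2 and the build hg19. The index, annotation, strand setting and the step from transcripts to genes are not given in the sources used here. Reads were 101-cycle paired ends from rRNA-depleted RNA, per the labels' protocols.

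Groups were taken from the labels. The estimated counts were rounded to whole numbers and tested with edgeR 4.0.16 (quasi-likelihood test, TMM scaling, filterByExpr; R 4.3.3), in 1 fit of 9 libraries per line, and in 1 fit of all 18 libraries for differences between lines. P-values were adjusted by Benjamini-Hochberg over all genes of a fit, and every adjusted p in the text is edgeR's unless limma or DESeq2 is named. SEs were taken as the size of the log2 fold change over the square root of edgeR's F. CPM were computed on TMM scaling of all 18 libraries. Alternatives were DESeq2 size factors, library size alone, no low-count filter, DESeq2 1.42.0, limma 3.58.1 on log2(TPM + 1) and log2(TPM + 0.1), each library left out in turn, a replicate block, and only the libraries compared. Limma on log2(TPM + 1) with each library's median removed was added after the data were seen. The fits were tested on simulated data with the same spread for every gene and a small share of genes changed. That simulation does not bear on the scaling when many genes move. Bounds from a count of 0 cover counting error only.

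The 41 genes, the pathway lists and the marker lists were chosen with earlier results of these data known. Genes with values for every library are those of each role with the largest called changes at 500 nM and a mean of at least 5 CPM, those called in OCI-Ly1 at 150 nM, those called in opposite directions, and the 3 largest called line differences in each direction; at most 3 genes of each pathway list follow the same rule, with IFNB1, IFNAR1, IFNAR2, MAVS and ADAR always shown. Another gene that the rule names is not reported here. The other genes with values were named to account for every member of a role.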

Additional observations from a re-analysis of the deposited data

Results flagged for a closer look

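The response to JIB-04 differed between the lines, by the test of the difference itself (edgeR, adjusted p below 0.05), for the genes listed here. All values are the log2 response in OCI-Ly1 minus that in TMD8, from the fit of all 18 libraries.

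At 150 nM, 4 genes had a higher response in OCI-Ly1: HERC6 (0.74), MX1 (0.59), EIF2AK2 (0.29) and SAMD9L (0.25). The first 3 had fallen in TMD8. A lower response was found for 6: OAS1 (-0.73), OAS3 (-0.65), IRF1 (-0.65), ISG20 (-0.63), TRIM22 (-0.57) and STAT2 (-0.30), all of which had risen in TMD8 at that dose. Leaving out OCI-Ly1 150 nM replicate 2 ended the calls on EIF2AK2 and HERC6, at adjusted p of 0.055 and 0.064. SAMD9L lost its call, at adjusted p of 0.051 to 0.12, without OCI-Ly1 DMSO replicate 1, OCI-Ly1 150 nM replicate 2 or 3, TMD8 DMSO replicate 1, TMD8 150 nM replicate 2 or 3 or TMD8 500 nM replicate 1.

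At 500 nM the called differences among transcription factors and ISG15 genes were all higher in OCI-Ly1: IRF7 (1.10), IRF9 (0.30), USP18 (2.0, from few counts in OCI-Ly1), UBA7 (1.29) and ISG15 (0.55). STAT2, IRF1, HERC5 and HERC6 were not called. Higher responses among effectors were those of GBP1 (0.71), SAMD9L (0.66) and MX1 (0.51). Among the other induced genes they were IFI27 (2.55), IFI35 (1.15), PARP14 (0.79) and IFI6 (0.60). The called differences among the sensors were all lower: OAS3 (-1.32), OAS1 (-1.02), OAS2 (-0.40) and DDX58 (-0.39). Lower responses were also found for TRIM22 (-0.85), ISG20 (-0.42), IFI44 (-2.39, from few counts in TMD8), EPSTI1 (-1.01) and XAF1 (-0.56). Some calls were lost without 1 library. IFI44 was at an adjusted p of 0.051 without TMD8 500 nM replicate 1, and ISG20 at 0.056 without OCI-Ly1 DMSO replicate 3. IFI6 was at 0.056 to 0.086 without OCI-Ly1 DMSO replicate 1, OCI-Ly1 500 nM replicate 1, TMD8 DMSO replicate 2 or 3 or TMD8 500 nM replicate 3. IRF9 was at 0.053 to 0.13 without OCI-Ly1 DMSO replicate 2 or 3, OCI-Ly1 500 nM replicate 1, TMD8 DMSO replicate 2 or 3 or any TMD8 500 nM library. On log2(TPM + 1) the differences of DDX58, ISG20 and OAS2 changed sign.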

How the results depend on the processing

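The scaling mattered most, and the cause was not tested. With limma on log2(TPM + 1), and equally on log2(TPM + 0.1), the numbers of members called were 0 higher in OCI-Ly1 at 150 nM, 6 lower in OCI-Ly1 at 500 nM, 5 higher in TMD8 at 150 nM, 7 higher and 17 lower in TMD8 at 500 nM, and 20 higher and 14 lower between the vehicle groups. From 150 to 500 nM in TMD8 the risen members numbered 2 and 1 on these scales, and the line difference at 500 nM had 21 and 19 higher and 5 and 4 lower. Directions turned in TMD8 at 500 nM for IFI35 (-0.0748 and -0.0861), IRF9 (-0.0355 and -0.0378), OAS2 (-0.0956 and -0.102) and SAMD9L (-0.0344 and -0.039). With each library's median removed these were 0.18, 0.22, 0.16 and 0.22. The line difference at 500 nM turned for DDX58 (0.0663 and 0.089), ISG20 (0.0933 and 0.0759) and OAS2 (0.00112 and 0.00152). That median-removed scale, added after seeing the data, gave 0 higher in OCI-Ly1 at 150 nM, 17 lower from 150 to 500 nM in OCI-Ly1 and 16 lower in the line difference at 500 nM. Library size alone gave 2 higher in the line difference at 150 nM and 8 higher between vehicle groups. Using only the 6 libraries compared gave 0 higher in OCI-Ly1 at 150 nM. Leaving out 1 library gave 0 to 2 higher in OCI-Ly1 at 150 nM and 1 to 5 higher in the line difference at 150 nM (1 without OCI-Ly1 150 nM replicate 2). At 500 nM it gave 12 to 14 higher and 9 to 12 lower in OCI-Ly1, and 13 to 16 higher and 9 to 10 lower in TMD8. All other counts stayed within 1.5 times.

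The replicate numbers paired the samples at most in part. The DMSO and 150 nM libraries of OCI-Ly1 correlated at 0.261 for replicate 1 and 0.261 for replicate 3, above the largest value between different numbers (0.071). In TMD8 these were 0.183 and 0.148, with 0.164 the largest between different numbers. With a replicate block, 159 of all genes rose and 48 fell in OCI-Ly1 at 150 nM, against 117 and 22 without it. Same-numbered libraries correlated at -0.068 to 0.261 in OCI-Ly1, where 5 of 9 libraries correlated best with their own number, and at -0.072 to 0.183 in TMD8, where 3 of 9 did. A fit with the replicate block gave 12 higher and 12 lower in OCI-Ly1 and 14 and 10 in TMD8 at 500 nM. Depth limits the lowest genes: CMPK2, IFI44 in TMD8, USP18 in OCI-Ly1 and all interferon genes lay near the floor of 3 counts.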

Other observations

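Subunits and chemokines induced by interferon outside the 41 genes gave further values at 500 nM, chosen after they were seen. The immunoproteasome genes PSMB8 and PSMB9, which cut peptides for antigen presentation, fell in both lines. PSMB8 was 83.4, 82.8 and 75.4 CPM with DMSO against 46.2, 51.02 and 48.7 at 500 nM in OCI-Ly1 (log2 -0.72 ± 0.06 (SE), adjusted p = 2.4e-08, edgeR), and 53.4, 56.4 and 59.3 against 39.3, 40.5 and 35.4 in TMD8 (log2 -0.52 ± 0.07 (SE), adjusted p = 2.3e-06). PSMB9 had log2 fold changes of -0.25 ± 0.06 and -0.67 ± 0.10. The helicase gene MOV10 rose in both lines, by 0.22 ± 0.08 and 0.41 ± 0.05, and so did RTP4, by 0.66 ± 0.13 and 1.0 ± 0.24.

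The chemokine CXCL10 had 0 counts in all OCI-Ly1 DMSO libraries and 0.715, 0.5202 and 0.507 CPM at 500 nM. The mean of these, 0.581 CPM, was at least 3.44-fold higher than the largest DMSO floor of 3 counts per library (0.169 CPM). In TMD8 it was 26.03, 21.6 and 20.8 CPM with DMSO, fell to 17.1, 13.9 and 11.8 at 150 nM (log2 -0.69 ± 0.11 (SE), adjusted p = 7.5e-05, edgeR) and was 19.3, 18.9 and 17.8 at 500 nM (log2 -0.25 ± 0.11 (SE), adjusted p = 0.06, edgeR). Its relative CXCL11 rose in TMD8 from 0.335, 0.292 and 0.2097 to 1.01, 0.999 and 0.833 CPM (log2 1.81 ± 0.51 (SE), adjusted p = 0.005).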
